A study of Mus musculus with 12 samples.

Results

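Integrins are the cell surface receptors through which cells hold the extracellular matrix, and laminins are the matrix proteins that build the sheet under an epithelium. The 36 genes described here have a mouse symbol that names an integrin alpha chain (18 genes), an integrin beta chain (8 genes) or a laminin chain (10 genes), and the count table holds 55385 gene identifiers in all. Their transcripts were measured by RNA sequencing of mRNA libraries in 12 samples of C57BL/6 mouse cells, with 4 libraries of HPmECC, 4 of mECC and 4 of primary cultured normal endometrial cells (normal cultures below). HPmECC and mECC are murine endometrial cancer cell lines. The series' design states that Myc was overexpressed in part of the cancer lines, but the labels do not give which one, and the sample titles carry the codes WT for HPmECC, DM for mECC and B6 for the normal cultures without explaining them. Each cancer group is a single line, and the labels do not say whether its 4 libraries came from separate cultures or, for the normal cultures, from separate mice. The p-values below thus speak for the scatter among these 12 libraries, part of which may be technical.

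An integrin is a pair of 1 alpha and 1 beta chain, and the pair decides the ligand. Itgb1 pairs with most alpha chains to bind collagens, laminins and fibronectin; Itgav pairs with Itgb3, Itgb5, Itgb6 or Itgb8 to bind vitronectin, fibronectin or latent TGF-beta; Itgb2 and Itgb7 belong to leukocyte receptors; and Itga6 with Itgb4 anchors epithelium in hemidesmosomes. A laminin is a trimer of an alpha, a beta and a gamma chain. Lama3 and Lamb3 are chains of the anchoring laminin of many epithelia, which is the ligand of the Itga6 and Itgb4 pair, whereas trimers of Lama5 or Lama4 with Lamb1 or Lamb2 and Lamc1 are laid down by epithelial, endothelial and other cells. In the endometrium, integrins of the luminal epithelium are studied as receptors in embryo attachment.

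The promoters of the members with the largest called fold change in each direction and of Lamb3 are shown, because these are the genes on which the comparisons below turn most. They run from 250 bases before to 50 bases after a RefSeq transcript start on GRCm38.p6, and 23 of the 36 members had 26 such windows. Capitals mark CACCTG, the E-box bound by Zeb and Snai repressors, or GGGCGG, the Sp1 box, on either strand. Itgb6 and Lamb3 have 2 such windows each. The GENCODE M21 annotation also lists a coding transcript of Lamb3, Lamb3-209, that starts at chr1:193207725, outside both windows. Lamc3 met the same rule and is named only. The windows are Itga11 at chr9:62677605-62677904, plus strand; Itgam at chr7:128062390-128062689, plus strand; Itgb6 at chr2:60673644-60673943, minus strand, and at chr2:60722554-60722853, minus strand; and Lamb3 at chr1:193301744-193302043, plus strand, and at chr1:193301993-193302292, plus strand.
Itga11: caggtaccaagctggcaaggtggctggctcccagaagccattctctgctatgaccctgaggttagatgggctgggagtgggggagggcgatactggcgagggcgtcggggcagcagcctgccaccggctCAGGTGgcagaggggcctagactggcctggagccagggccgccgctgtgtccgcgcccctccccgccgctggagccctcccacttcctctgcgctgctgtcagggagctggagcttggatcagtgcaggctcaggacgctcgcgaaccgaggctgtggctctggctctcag
Itgam: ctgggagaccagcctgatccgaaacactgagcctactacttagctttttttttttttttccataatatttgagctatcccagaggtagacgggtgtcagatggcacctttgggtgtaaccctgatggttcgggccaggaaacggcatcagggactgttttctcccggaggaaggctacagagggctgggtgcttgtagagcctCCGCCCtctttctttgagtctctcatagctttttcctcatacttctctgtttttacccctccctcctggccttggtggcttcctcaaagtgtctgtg
Itgb6, inner start: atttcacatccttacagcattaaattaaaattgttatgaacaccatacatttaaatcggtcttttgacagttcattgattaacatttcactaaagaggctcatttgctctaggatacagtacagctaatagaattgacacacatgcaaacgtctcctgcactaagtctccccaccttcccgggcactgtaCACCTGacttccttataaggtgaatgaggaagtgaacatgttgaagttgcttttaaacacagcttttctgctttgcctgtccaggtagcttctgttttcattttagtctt
Itgb6, outer start: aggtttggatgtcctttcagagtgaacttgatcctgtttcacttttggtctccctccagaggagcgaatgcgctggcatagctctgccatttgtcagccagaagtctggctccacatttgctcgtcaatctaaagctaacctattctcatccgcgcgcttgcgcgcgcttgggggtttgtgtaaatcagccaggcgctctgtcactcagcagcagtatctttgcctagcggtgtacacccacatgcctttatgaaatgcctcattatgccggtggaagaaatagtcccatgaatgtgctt
Lamb3, first start: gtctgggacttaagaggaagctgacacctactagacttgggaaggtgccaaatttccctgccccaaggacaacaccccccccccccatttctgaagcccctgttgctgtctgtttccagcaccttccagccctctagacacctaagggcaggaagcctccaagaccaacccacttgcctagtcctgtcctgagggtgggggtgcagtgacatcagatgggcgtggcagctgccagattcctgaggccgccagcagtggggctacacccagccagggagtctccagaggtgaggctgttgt
Lamb3, second start: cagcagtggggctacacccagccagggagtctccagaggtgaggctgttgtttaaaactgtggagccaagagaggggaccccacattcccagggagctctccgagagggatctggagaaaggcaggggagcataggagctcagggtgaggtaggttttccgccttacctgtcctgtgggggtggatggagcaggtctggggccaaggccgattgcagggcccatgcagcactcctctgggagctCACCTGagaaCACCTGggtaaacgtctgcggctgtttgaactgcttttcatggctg
CACCTG was found once in the Itga11 window, 121 bases before the start, and once in the inner Itgb6 window, 60 bases before the start. The second Lamb3 window held it at 2 places, beginning 6 bases before and 4 bases after the start. Of the 26 member windows, 8 held CACCTG, against 20.2% of all 32851 windows in the table. GGGCGG was found in 12 of 26, against 35.7% of all windows, TGANTCA (the AP-1 site) in 3, against 7.81%, and CACGTG (the Myc E-box) in 0, against 7.15%. A match describes letters in a window and not a site in use.

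The libraries held 18402202 to 26873582 counts in HPmECC, 21755275 to 25821106 in mECC and 16332060 to 24202564 in the normal cultures. The 36 genes together took 0.328% ± 0.00661 of all counts in HPmECC, 0.337% ± 0.00494 in mECC and 0.686% ± 0.00686 in the normal cultures (SD, n = 4 each). The summed CPM (counts scaled to library size) of 15 epithelial markers were 312 to 328 in HPmECC libraries, 1652 to 1693 in mECC libraries and 9869 to 10207 in the normal cultures. Epcam, an epithelial adhesion molecule, averaged 0.34 ± 0.159 CPM in HPmECC libraries, 92.6 ± 2.93 CPM in mECC and 461 ± 21 CPM in the normal cultures. Vimentin, collagens and the other mesenchymal markers (10 genes) summed to 9097 to 9794 CPM in HPmECC libraries, 8446 to 9335 CPM in mECC and 2185 to 2722 CPM in the normal cultures. The epithelial sums of the 3 groups did not overlap, whereas the mesenchymal sums of the lines overlapped. In HPmECC against mECC, 5 of the 10 mesenchymal markers were higher and 5 lower, beside 33.8% and 34.5% of all genes. The part of these markers in the results below was not tested. In a bulk library, fewer cells of a type and less RNA per cell cannot be told apart.

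Most members were lower in both cancer lines than in the normal cultures. Of 36 members, 35 had enough counts for the edgeR quasi-likelihood test, in which p-values were adjusted over all 15283 genes with a threshold of 0.05. Itgad was not tested, with 6 counts in all HPmECC libraries, 14 in mECC and 0 in the normal cultures. In HPmECC against the normal cultures, 9 members were higher and 26 lower, and 86.4% of all genes tested were called (43.0% higher, 43.3% lower). In mECC against the normal cultures, 6 were higher, 28 lower and 1 was not called, and 86.3% of all genes were called (42.1% higher, 44.2% lower). At a change of at least 2-fold, 5 members were higher and 20 lower in HPmECC, against 18.5% and 23.0% of all genes in those directions. The same count in mECC was 5 higher and 25 lower, against 18.4% and 22.8% of all genes. The median log2 fold change of the members was -2.14 in HPmECC, beside 0.00 over all genes, and -1.91 in mECC, beside -0.02. Both comparisons share the 4 normal libraries. Between the lines, 12 members were higher in HPmECC, 14 lower and 9 not called, so that 74.3% were called, beside 68.3% of all genes (33.8% higher, 34.5% lower). The 9 were Itga2b, Itga4, Itga8, Itgal, Itgam, Itgav, Itgax, Lama2 and Lamb3. At a change of at least 2-fold 5 were higher and 6 lower in HPmECC than in mECC, beside 6.73% and 9.4% of all genes.

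**Figure D1:**
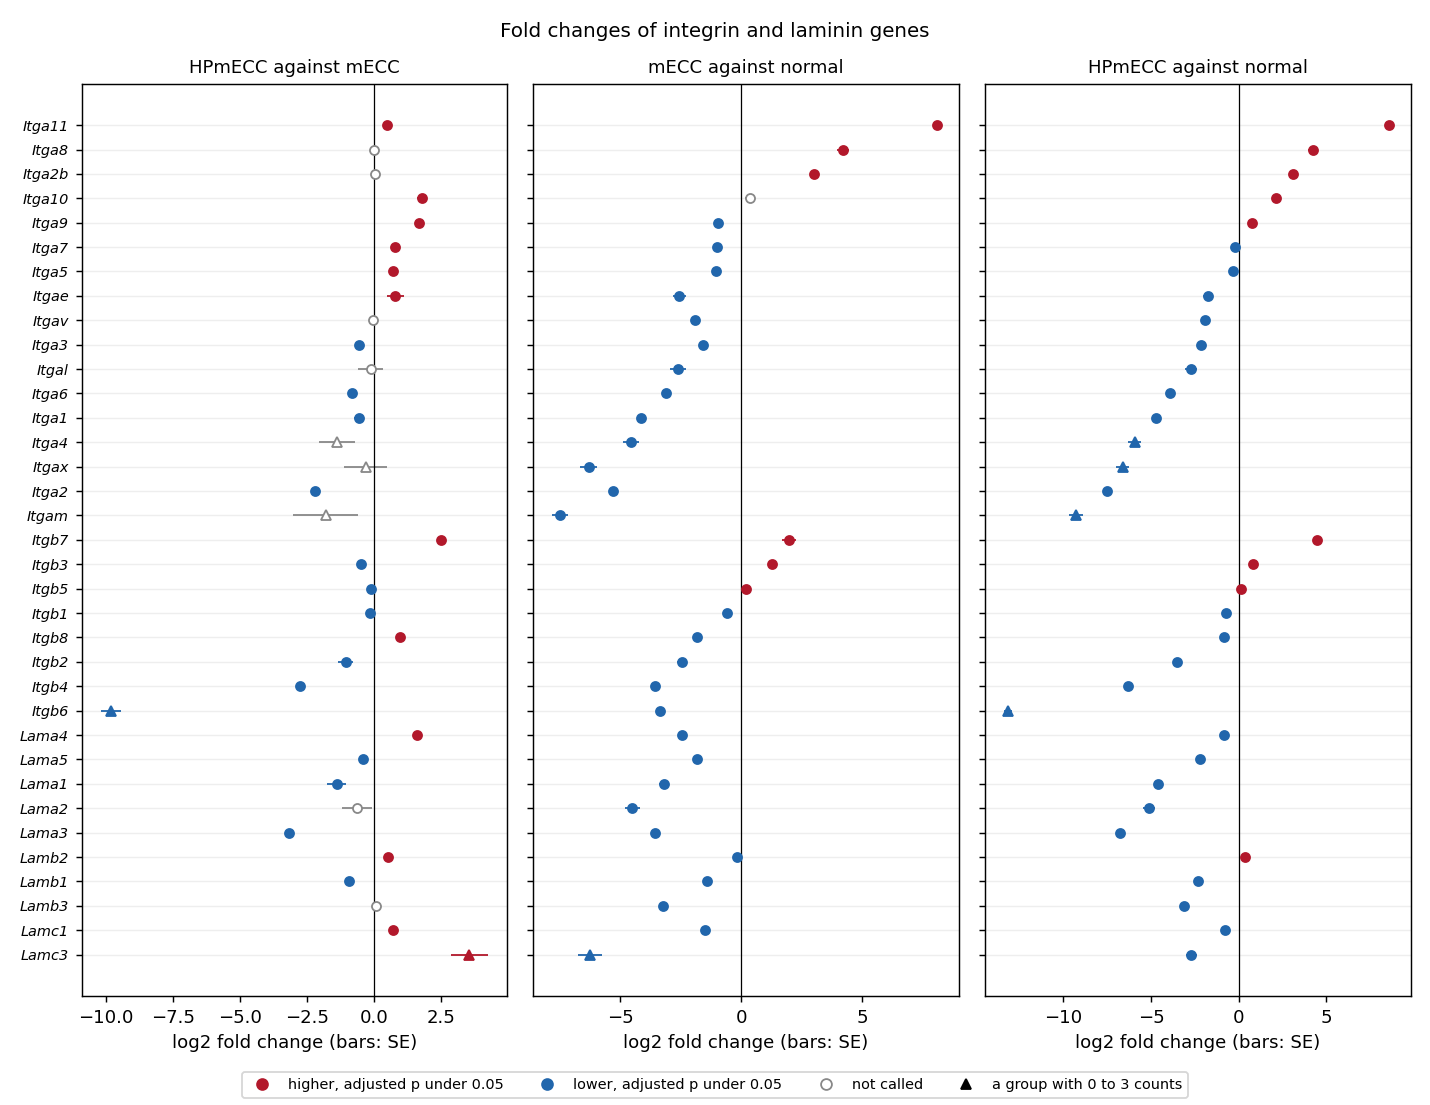
Log2 fold changes of the members (x axis) for HPmECC against mECC, mECC against normal and HPmECC against normal, with 1 row per gene and bars for the standard error; filled points passed the edgeR threshold of 0.05, and triangles mark genes with 0 to 3 counts in a group, whose fitted value is no bound. Most laminin chains and the epithelial integrins lie left of 0 in the comparisons with normal, and Itga11 lies farthest to the right, at 8.58 for HPmECC and 8.08 for mECC.

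The anchoring chains of epithelium showed a graded order, lowest in HPmECC, intermediate in mECC and highest in the normal cultures, for 3 of the 4 genes. Itgb4 (ENSMUSG00000020758, chr11:115974709-116008412, plus strand), the beta chain found in hemidesmosomes, had 4.01, 3.75, 2.89 and 3.28 CPM in the 4 HPmECC libraries, 22.8, 24.3, 23.6 and 24.4 CPM in mECC and 285, 285, 280.2 and 272 CPM in the normal cultures. No library of 1 group reached the values of another. Itgb4 was 6.77-fold lower in HPmECC than in mECC (edgeR adjusted p = 5.93e-17, log2 fold change -2.76 ± 0.07 SE) and 11.8-fold lower in mECC than in the normal cultures (edgeR adjusted p = 8.95e-23, log2 fold change -3.56 ± 0.04 SE). HPmECC was 79.7-fold below the normal cultures. All 15 epithelial markers above were lower in HPmECC than in mECC. Against the normal cultures, 15 were lower in HPmECC and 14 in mECC. Of 5 basal or squamous epithelial markers tested, 3 were lower and 2 not called in HPmECC against mECC. Against the normal cultures, 1 of these was higher and 3 lower in HPmECC, but 3 were higher and 2 lower in mECC. Of all genes, 68.3% were called between the lines, 86.4% in HPmECC and 86.3% in mECC. The part of either marker list in these differences was not tested. The partner of Itgb4, Itga6 (ENSMUSG00000027111, chr2:71745616-71858416, plus strand), averaged 11.8 ± 0.58 CPM in HPmECC libraries, 20.5 ± 1.79 CPM in mECC and 177 ± 14.8 CPM in the normal cultures (SD, n = 4 each). Itga6 was 1.74-fold lower in HPmECC than in mECC (edgeR adjusted p = 4.87e-08) and 8.61-fold lower in mECC than in the normal cultures (edgeR adjusted p = 3.32e-19).

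Lama3, the alpha chain of the anchoring laminin, had 2.9, 1.97, 2.47 and 2.76 CPM in HPmECC libraries, 21.7, 22.7, 22.7 and 23.6 CPM in mECC and 269, 273, 271 and 277 CPM in the normal cultures. The 3 groups did not overlap. Lama3 was 9.01-fold lower in HPmECC than in mECC (edgeR adjusted p = 2.99e-17, log2 fold change -3.17 ± 0.07 SE), 12-fold lower in mECC than in the normal cultures (edgeR adjusted p = 1.11e-22, log2 fold change -3.59 ± 0.04 SE) and 108-fold lower in HPmECC than in the normal cultures.

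Lamb3 (ENSMUSG00000026639, chr1:193207699-193343878, plus strand), the beta chain of the same laminin, did not follow this order. It had 41.3, 35, 43.3 and 37.2 CPM in HPmECC libraries, 34.7, 37.7, 35.7 and 37.7 CPM in mECC and 348, 351, 342 and 337 CPM in the normal cultures. Both lines were below every normal culture, by 8.83-fold in HPmECC (edgeR adjusted p = 7.03e-21) and 9.45-fold in mECC (edgeR adjusted p = 5.10e-21), but the lines overlapped each other. Their difference was not called (edgeR adjusted p = 0.111, log2 fold change 0.10 ± 0.05 SE), although it was without HPmECC replicate 2, at a log2 fold change of 0.15 and an edgeR adjusted p of 0.0105. On the per-length scale of transcript abundance (TPM, which sums to the same total in each library), Lama3 and Lamb3 averaged 0.657 ± 0.0763 and 16.6 ± 1.56 TPM in HPmECC, 7.16 ± 0.225 and 16.1 ± 0.69 TPM in mECC, and 70.3 ± 0.53 and 128 ± 2.99 TPM in the normal cultures. Lama3 was the lower of these chains in every group on this scale.

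The other epithelial anchoring genes moved in both directions. Of 8 hemidesmosome and non-integrin laminin receptor genes, all tested, 2 were higher and 5 lower in HPmECC than in mECC. Against the normal cultures, 2 were higher and 5 lower in HPmECC, and 3 were higher and 5 lower in mECC. Of all genes, 68.3% were called between the lines, 86.4% in HPmECC and 86.3% in mECC. Bcam, a surface receptor for Lama5-containing laminins, averaged 4.64 ± 0.344 CPM in HPmECC libraries, 22.1 ± 1.54 CPM in mECC and 338 ± 14.2 CPM in the normal cultures. It was 4.79-fold lower in HPmECC than in mECC and 15.3-fold lower in mECC than in the normal cultures (edgeR adjusted p = 3.19e-15 and 1.31e-22). Plec and Dst encode plakins that tie integrins to the cytoskeleton. In HPmECC, Plec was 1.38-fold and Dst 1.27-fold higher than in mECC (edgeR adjusted p = 4.97e-08 and 0.00168), and Dst was not called on TPM. Dst was 2.16-fold lower in mECC than in the normal cultures (edgeR adjusted p = 4.97e-10). Sdc1, a syndecan of epithelia, was higher in both lines than in the normal cultures, by 2.42-fold in HPmECC and 2.84-fold in mECC, whereas Sdc4, the syndecan of focal adhesions, was 5.36-fold and 3.98-fold lower. Dag1, which encodes dystroglycan, was 1.75-fold lower in HPmECC than in the normal cultures.

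**Figure D2:**
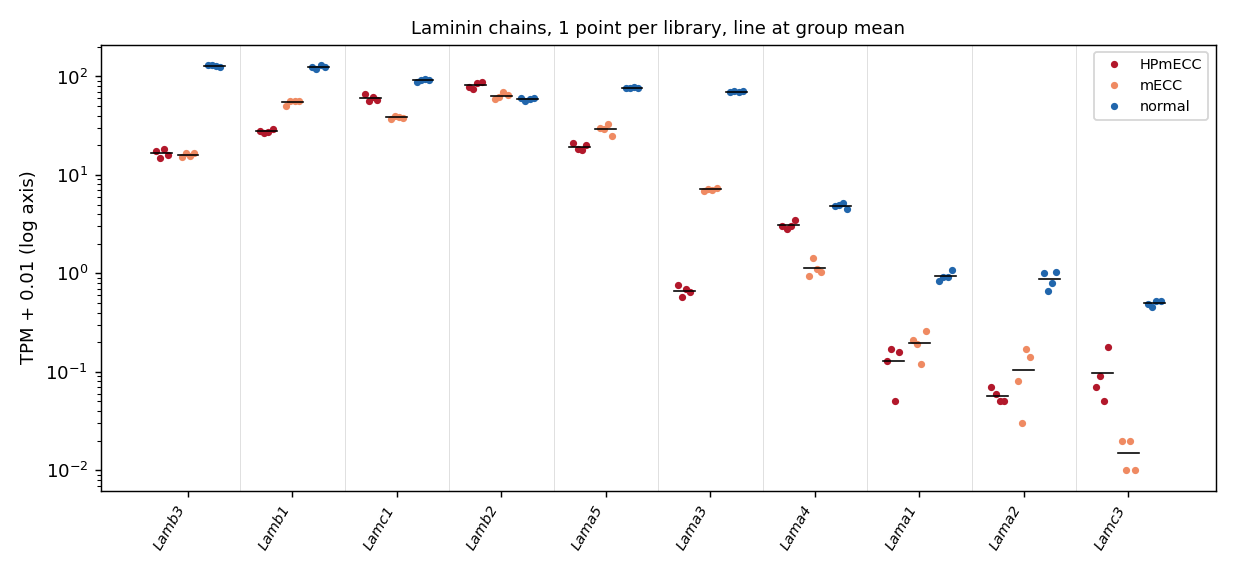
TPM + 0.01 of each of the 10 laminin chains on a log axis, with 1 point per library and a line at the mean of each group of 4, in the order HPmECC, mECC and normal. Lama3 steps up between HPmECC, mECC and normal, whereas the Lamb3 points of the 2 lines overlap and lie below normal.

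The 10 laminin chains were lower in mECC than in the normal cultures, 9 of them by at least 2-fold (beside 44.2% and 22.8% of all genes), except that the Lamb2 call did not hold when the libraries were scaled by their totals (log2 fold change 0.08, edgeR adjusted p = 0.0592) or on log2(TPM + 1) (0.12, limma adjusted p = 0.0817). In HPmECC 9 chains were lower than in the normal cultures, 7 of them by at least 2-fold (beside 43.3% and 23.0% of all genes), and Lamb2 was higher. Between the lines, 4 chains were higher in HPmECC (Lama4, Lamb2, Lamc1 and Lamc3), 4 lower (Lama1, Lama3, Lama5 and Lamb1) and 2 not called (Lama2 and Lamb3), so that 80% were called, beside 68.3% of all genes. On log2(TPM + 1), Lama1 and Lamc3 were not called between the lines.

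Lama4 (ENSMUSG00000019846, chr10:38965515-39110188, plus strand), the alpha chain of vascular and mesenchymal basement membranes, had 10.8, 10.1, 10.8 and 12.6 CPM in HPmECC libraries, 3.16, 3.74, 3.84 and 3.45 CPM in mECC and 19.4, 19.8, 20.9 and 18.4 CPM in the normal cultures. HPmECC lay between mECC and normal with no overlap. Lama4 was higher in HPmECC than in mECC, by 3.1-fold (edgeR adjusted p = 1.67e-11, log2 fold change 1.63 ± 0.09 SE), and 1.77-fold lower than in the normal cultures (edgeR adjusted p = 6.08e-09, log2 fold change -0.83 ± 0.08 SE). Endothelial markers (10 genes) summed to 9.91 to 11.9 CPM in HPmECC libraries, 3.66 to 4.75 CPM in mECC and 125 to 141 CPM in the normal cultures, and among them Cdh5, Cldn5, Tek and Tie1 had 0 counts in HPmECC and Cldn5 had 0 in mECC and in the normal cultures. Most of the difference of these sums between the lines came from Kdr and Erg. For HPmECC, Kdr averaged 6.19 ± 1.21 CPM and Erg 3.53 ± 0.327 CPM. The mECC averages were 3.4 ± 0.376 CPM for Kdr and 0.12 ± 0.0642 CPM for Erg. Between the lines, 33.8% of all genes were higher and 34.5% lower in HPmECC. Among the 6 endothelial markers tested, 3 were higher, 2 lower and 1 not called in HPmECC against mECC. The part of these markers in the Lama4 difference was not tested. Lama5 (ENSMUSG00000015647, chr2:180176373-180225859, minus strand), the broad epithelial alpha chain, averaged 128 ± 15.7 CPM in HPmECC libraries, 168 ± 7.28 CPM in mECC and 591 ± 10.8 CPM in the normal cultures. It was 1.31-fold lower in HPmECC than in mECC (edgeR adjusted p = 1.17e-05) and 3.52-fold lower in mECC than in the normal cultures (edgeR adjusted p = 7.28e-16).

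Lamb1 (ENSMUSG00000002900, chr12:31265234-31329644, plus strand) and Lamb2 (ENSMUSG00000052911, chr9:108479736-108490530, plus strand) are the alternative beta chains of the broad laminins and went opposite ways between the lines. Lamb1 had 95.8, 88.9, 93.5 and 100.4 CPM in HPmECC libraries, 165, 184, 182 and 184 CPM in mECC and 478, 465, 495 and 485 CPM in the normal cultures. The groups did not overlap, and Lamb1 was 1.89-fold lower in HPmECC than in mECC (edgeR adjusted p = 3.80e-13, log2 fold change -0.92 ± 0.04 SE). Lamb2 had 218, 203, 214 and 220.5 CPM in HPmECC libraries, 134, 148, 153 and 154 CPM in mECC and 165, 161, 165 and 169.5 CPM in the normal cultures. Every HPmECC library was above every library of the other groups, and Lamb2 was higher in HPmECC than in mECC, by 1.45-fold (edgeR adjusted p = 5.71e-10, log2 fold change 0.54 ± 0.04 SE), and 1.3-fold higher than in the normal cultures (edgeR adjusted p = 4.13e-08, log2 fold change 0.37 ± 0.04 SE). Lamc1 (ENSMUSG00000026478, chr1:153218922-153332786, minus strand), the common gamma chain, averaged 272 ± 19.8 CPM in HPmECC libraries, 166 ± 4.31 CPM in mECC and 469 ± 9.05 CPM in the normal cultures, and was higher in HPmECC than in mECC, by 1.64-fold (edgeR adjusted p = 1.64e-11, log2 fold change 0.71 ± 0.04 SE), and 1.73-fold lower in HPmECC than in the normal cultures.

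The remaining chains had few counts. Lama1, an alpha chain of early embryonic and some adult epithelial basement membranes, had 23 counts over the 4 HPmECC libraries, 64 in mECC and 427 in the normal cultures. Lama2, the muscle alpha chain, had 11 counts in HPmECC, 18 in mECC and 302 in the normal cultures. Both were lower in each line than in the normal cultures (edgeR adjusted p at most 6.30e-11). Lamc3 had 5, 8, 2 and 14 counts in the HPmECC libraries, 1, 0, 1 and 0 in mECC and 28, 34, 37 and 44 in the normal cultures. The counts gave a ratio of 15.1 of HPmECC to mECC, with an exact 95% counting interval of 3.83 to 131, and the test called it (edgeR adjusted p = 1.58e-04). Smooth muscle markers (9 genes) summed to 189 to 253 CPM in HPmECC libraries, 52.7 to 55.3 CPM in mECC and 2294 to 2765 CPM in the normal cultures, and their part in the Lama2 difference was not tested.

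The laminin alpha and beta transcripts of the 3 groups differed in make-up as well as in level. Summed laminin alpha chains reached 23.2 ± 1.78 TPM in HPmECC, 37.8 ± 3.07 TPM in mECC and 154 ± 0.594 TPM in the normal cultures. Lama3 made up 2.83% ± 0.296 of the alpha chain TPM in HPmECC, 19.1% ± 2.11 in mECC and 45.7% ± 0.456 in the normal cultures. Lama5 made up 83.3% ± 0.872 in HPmECC, 77.2% ± 2.57 in mECC and 49.97% ± 0.39 in the normal cultures, and Lama4 13.2% ± 1.01 in HPmECC, 2.98% ± 0.579 in mECC and 3.14% ± 0.175 in the normal cultures. Lama5 was the leading alpha chain in every group. When counts were divided by the longest annotated transcript in place of the RSEM length, Lama5 still led, and Lama3 held 1.79% in HPmECC, 12.3% in mECC and 31.5% in the normal cultures, against 63.3% for Lama5 in the normal cultures. Among beta chains Lamb2 held 64.9% ± 1.29 of the TPM in HPmECC, 47.3% ± 1.53 in mECC and 18.8% ± 0.537 in the normal cultures, while Lamb3 held 13.1% ± 1.004 in HPmECC, 11.9% ± 0.647 in mECC and 41.2% ± 1.1 in the normal cultures. Lamb1 held 22% ± 1.01 in HPmECC, 40.8% ± 0.937 in mECC and 40.0% ± 0.846 in the normal cultures. Lamb2 led in HPmECC on both length scales. The order of Lamb1 and Lamb2 in mECC turned with the scale, since on the longest transcript Lamb1 held 47.9% and Lamb2 40.5%. In the normal cultures Lamb2 had the smallest share on both scales.

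**Figure D3:**
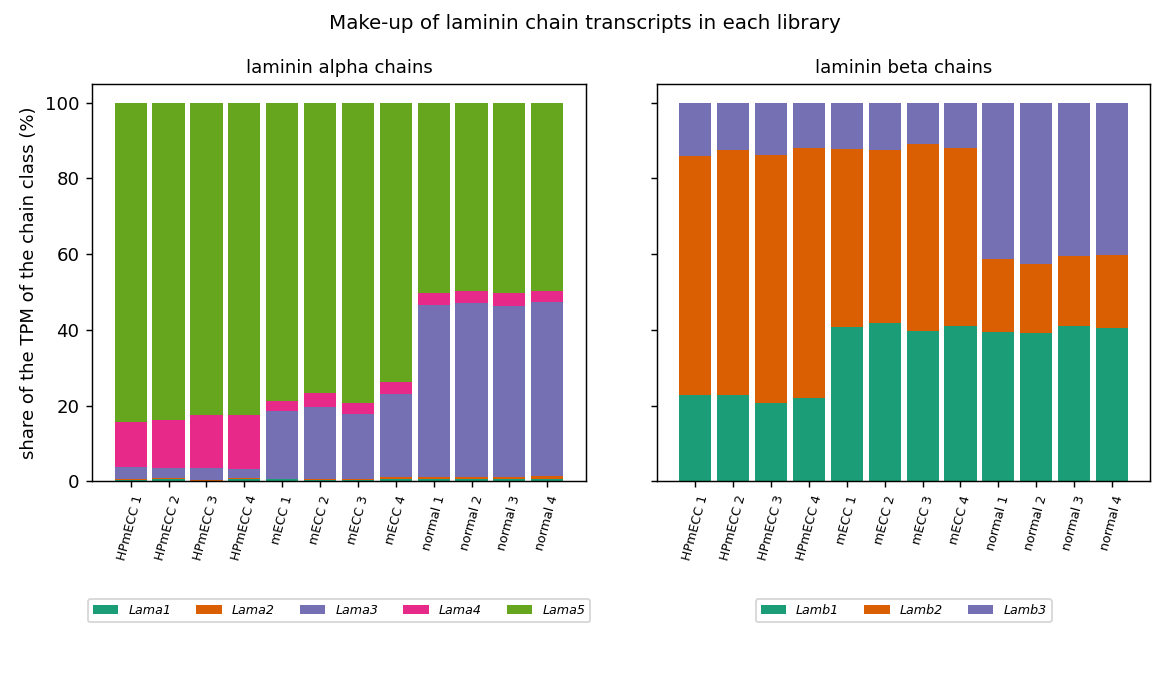
Share of the TPM of each laminin chain class (y axis, percent) held by each chain, with 1 stacked bar per library, for alpha and beta chains. Lama3 and Lamb3 take smaller shares in the HPmECC libraries (2.83% and 13.1% on average) than in the normal libraries (45.7% and 41.2%).

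Estimated transcript length was also followed. An effective transcript length follows from the deposited counts and FPKM values, as the length that turns those counts into that FPKM. It is a single value per gene and library, so it does not show which annotated transcripts RSEM weighted. Among members with a mean of at least 50 counts in both groups, a difference of at least 10% without overlap was found for 1 of 21 in HPmECC against mECC, beside 2.47% of all genes measured this way. It was Lama3, 14.7% longer in HPmECC, at a mean of only 61.2 counts per HPmECC library, and it was not found without HPmECC replicate 4. The count was 0 of 18 in HPmECC against the normal cultures (6.32% of all genes) and 0 of 21 in mECC against the normal cultures (5.54%). Division of reads between transcripts by RSEM is an estimate, and the junction reads behind it were not analysed here.

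The collagen receptor chains changed in opposite directions. Itga11 (ENSMUSG00000032243, chr9:62677826-62783982, plus strand), the fibroblast receptor for fibrillar collagen whose promoter is given above, had 151, 136, 141 and 139 CPM in HPmECC libraries, 91.2, 104, 100.1 and 106 CPM in mECC and 0.542, 0.519, 0.22 and 0.23 CPM in the normal cultures. The normal cultures held 27 counts of it in all. Itga11 was 382-fold higher in HPmECC than in the normal cultures (edgeR adjusted p = 8.20e-22, log2 fold change 8.58 ± 0.11 SE) and 271-fold higher in mECC (edgeR adjusted p = 4.37e-21, log2 fold change 8.08 ± 0.12 SE). HPmECC was also 1.41-fold above mECC (edgeR adjusted p = 2.33e-08, log2 fold change 0.50 ± 0.05 SE). Of the 10 mesenchymal markers, 6 were higher and 4 lower in each line than in the normal cultures. Of all genes, 43.0% were higher and 43.3% lower in HPmECC, and 42.1% were higher and 44.2% lower in mECC. The part of the mesenchymal markers in the Itga11 difference was not tested. Itga2 (ENSMUSG00000015533, chr13:114833081-114932100, minus strand), the collagen receptor of epithelia and platelets, had 1.45, 1.75, 1.26 and 2.17 CPM in HPmECC libraries, 6.97, 7.92, 8.26 and 8.0 CPM in mECC and 299, 308, 298 and 318 CPM in the normal cultures. It was graded in the same order as Itgb4, 4.59-fold lower in HPmECC than in mECC (edgeR adjusted p = 3.03e-12, log2 fold change -2.20 ± 0.11 SE) and 39.1-fold lower in mECC than in the normal cultures (edgeR adjusted p = 3.04e-23, log2 fold change -5.29 ± 0.05 SE).

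Itga1, a receptor for basement membrane collagen found on stromal, smooth muscle and endothelial cells, averaged 1.91 ± 0.678 CPM in HPmECC libraries, 2.72 ± 0.474 CPM in mECC and 49.1 ± 1.02 CPM in the normal cultures. It was 26.3-fold lower in HPmECC and 18-fold lower in mECC than in the normal cultures (edgeR adjusted p = 8.56e-18 and 1.87e-17). The lines overlapped in Itga1, and the 1.46-fold lower level in HPmECC (edgeR adjusted p = 0.00924) was not called on TPM. Itga10 (ENSMUSG00000090210, chr3:96645584-96664519, plus strand), the cartilage collagen receptor, averaged 4.81 ± 0.653 CPM in HPmECC libraries, 1.39 ± 0.249 CPM in mECC and 1.07 ± 0.215 CPM in the normal cultures. Its level was higher in HPmECC than in mECC, by 3.48-fold (edgeR adjusted p = 1.29e-08, log2 fold change 1.80 ± 0.16 SE), and it was not called between mECC and the normal cultures (edgeR adjusted p = 0.121; 0.0132 with library totals). It shares 33.5% of its exon bases with the same-strand gene model Gm42957, which had 0 counts. Among the 4 collagen receptor alpha chains, Itga2 was the highest in the normal cultures, at 67.7 ± 2.77 TPM, and Itga11 in both lines, at 49.4 ± 3.1 TPM in HPmECC and 36.5 ± 2.57 TPM in mECC.

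The same 5 chains, Itgb1, Itgb5, Itga3, Itga5 and Itgav, had the highest integrin levels per length in all 3 groups. Itgb1 encodes the beta chain shared by most matrix receptors and averaged 386 ± 6.88 TPM in HPmECC, 435 ± 5.41 TPM in mECC and 567 ± 13.3 TPM in the normal cultures, or 62.3% ± 0.195, 61.7% ± 0.906 and 66.6% ± 0.595 of all integrin beta TPM in those groups. On counts it was 1.66-fold lower in HPmECC and 1.53-fold lower in mECC than in the normal cultures (edgeR adjusted p = 3.70e-16 and 6.09e-15). Between the lines, Itgb1 was 1.09-fold and Itgb5 1.06-fold lower in HPmECC than in mECC (edgeR adjusted p = 1.11e-04 and 0.0106). Itga5 (ENSMUSG00000000555, chr15:103344286-103366763, minus strand), the fibronectin receptor chain, had 431, 427, 422 and 442 CPM in HPmECC libraries, 259, 265, 258 and 261 CPM in mECC and 574, 480.1, 567 and 546 CPM in the normal cultures. All HPmECC libraries were above all mECC libraries and below all normal cultures. Itga5 was higher in HPmECC than in mECC, by 1.65-fold (edgeR adjusted p = 2.04e-11, log2 fold change 0.72 ± 0.04 SE), and 1.26-fold lower in HPmECC than in the normal cultures (edgeR adjusted p = 4.26e-07, log2 fold change -0.33 ± 0.04 SE). It held 39% ± 1.03 of the integrin alpha TPM in HPmECC, 27% ± 0.599 in mECC and 19.4% ± 1.35 in the normal cultures. Itga3 (ENSMUSG00000001507, chr11:95044474-95076801, minus strand), the main laminin receptor chain of epithelia, held 22.1% ± 0.858 in HPmECC, 36.3% ± 0.927 in mECC and 37.6% ± 0.987 in the normal cultures. Itga5 was thus the leading alpha chain in HPmECC, and Itga3 in mECC and in the normal cultures. Itga3 itself averaged 258 ± 8.15 CPM in HPmECC libraries, 379.9 ± 8.54 CPM in mECC and 1139.8 ± 20.1 CPM in the normal cultures and was 1.47-fold lower in HPmECC than in mECC (edgeR adjusted p = 2.37e-12, log2 fold change -0.56 ± 0.03 SE).

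Itgav (ENSMUSG00000027087, chr2:83724397-83806916, plus strand), the alpha chain of vitronectin receptors, averaged 223 ± 15.4 CPM in HPmECC libraries, 227 ± 8.05 CPM in mECC and 852 ± 18.5 CPM in the normal cultures. It was 3.82-fold lower in HPmECC and 3.75-fold lower in mECC than in the normal cultures (edgeR adjusted p = 7.10e-19 and 8.93e-19), and was not called between the lines (log2 fold change -0.03, edgeR adjusted p = 0.567). Its beta partners Itgb3, Itgb5, Itgb6 and Itgb8 differed in direction among themselves. Itgb6 (ENSMUSG00000026971, chr2:60598292-60722643, minus strand), the epithelial partner that activates latent TGF-beta, had 0, 0, 0 and 0 counts in the 4 HPmECC libraries, 102, 156, 131 and 116 counts in mECC and 803, 927, 927 and 1052 counts in the normal cultures. Against the floor that 0 counts allow in HPmECC (3 counts over the group), Itgb6 was at least 161-fold lower in HPmECC than in mECC and at least 1632-fold lower than in the normal cultures (edgeR adjusted p = 2.16e-12 and 5.03e-18). In mECC, Itgb6 was 10.2-fold lower than in the normal cultures (edgeR adjusted p = 4.42e-16, log2 fold change -3.35 ± 0.08 SE).

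Itgb8 (ENSMUSG00000025321, chr12:119158022-119238802, minus strand), the other partner that activates latent TGF-beta, had 19.9, 17.2, 20.4 and 21.7 CPM in HPmECC libraries, 9.92, 9.96, 9.57 and 10.3 CPM in mECC and 32, 41.9, 29.4 and 35.9 CPM in the normal cultures. HPmECC lay between mECC and normal, 1.99-fold above mECC (edgeR adjusted p = 6.18e-08, log2 fold change 0.99 ± 0.10 SE) and 1.77-fold below the normal cultures (edgeR adjusted p = 6.88e-08, log2 fold change -0.82 ± 0.09 SE). Itgb3, the partner in the vitronectin receptor of osteoclasts, had 54.5, 58.2, 52.7 and 61 CPM in HPmECC libraries, 76.5, 80.5, 73.7 and 81.7 CPM in mECC and 35.7, 29.4, 32.9 and 32.9 CPM in the normal cultures. It was higher in both lines than in the normal cultures, by 1.74-fold in HPmECC (edgeR adjusted p = 1.54e-10, log2 fold change 0.80 ± 0.06 SE) and 2.39-fold in mECC (edgeR adjusted p = 8.62e-14, log2 fold change 1.26 ± 0.06 SE), and was 1.38-fold lower in HPmECC than in mECC (edgeR adjusted p = 2.01e-07). Itgb5 averaged 343 ± 8.61 CPM in HPmECC libraries, 365 ± 11.8 CPM in mECC and 316 ± 7.83 CPM in the normal cultures, a 1.09-fold higher level in HPmECC and a 1.15-fold higher level in mECC than in the normal cultures (edgeR adjusted p = 9.87e-04 and 2.17e-06). Per length, Itgb5 was the second most abundant beta chain in every group, at 206 ± 4.24 TPM in HPmECC, 232 ± 8.89 TPM in mECC and 170.3 ± 4.27 TPM in the normal cultures.

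**Figure D4:**
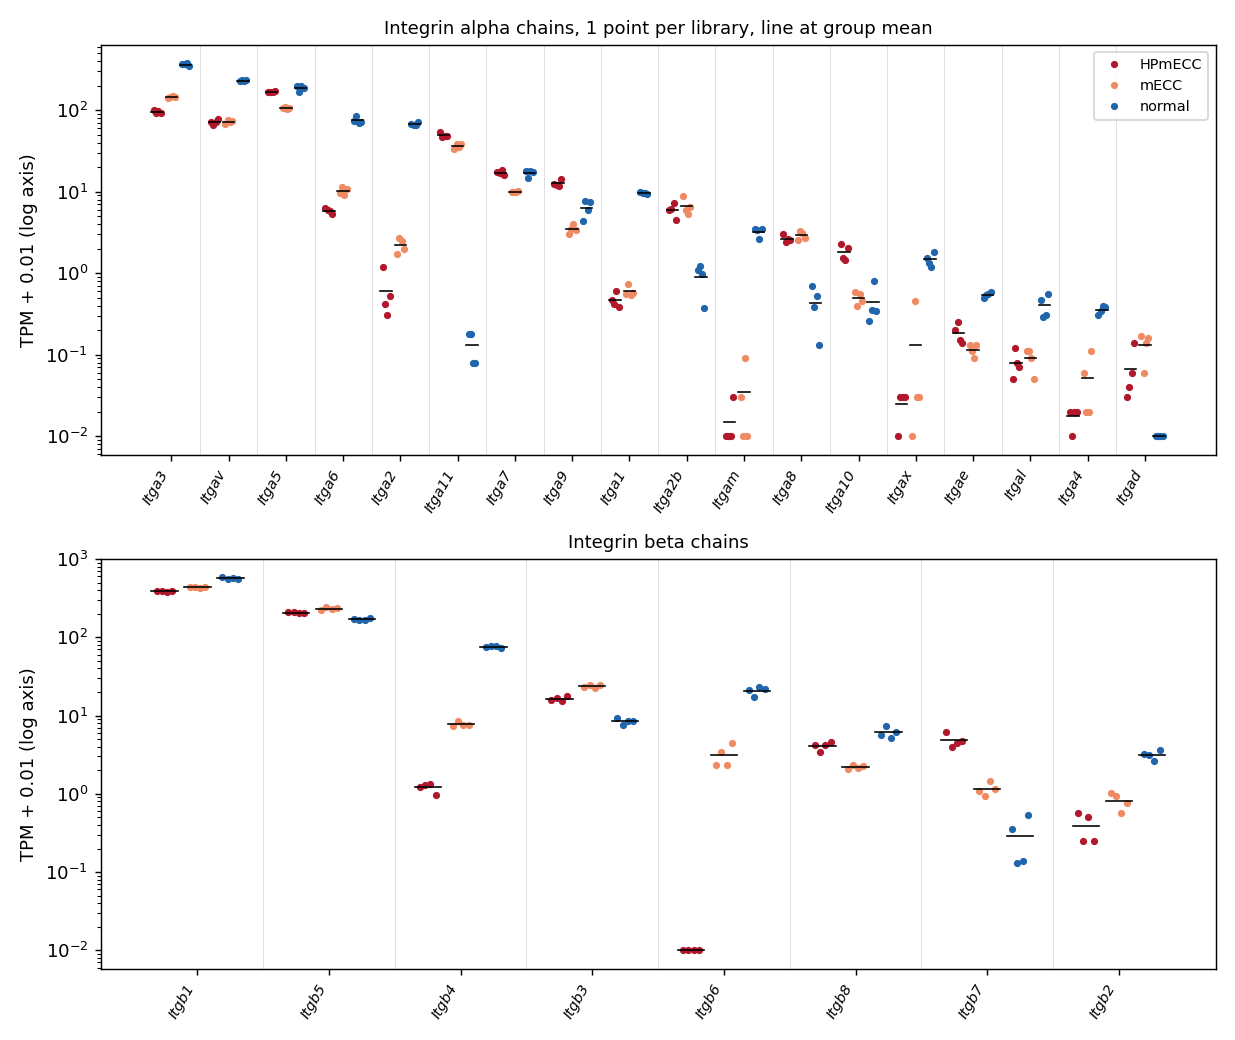
TPM + 0.01 of each of the 26 integrin chains on a log axis, with 1 point per library and a line at the mean of each group of 4, in the order HPmECC, mECC and normal. Itgb1, Itgb5, Itga5, Itga3 and Itgav lie at the top in all groups, Itga11 is high in both lines and near 0 in normal, and Itgb6 is at 0 in HPmECC.

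The other receptors of mesenchymal and muscle cells varied in their own ways. Itga8 (ENSMUSG00000026768, chr2:12106632-12301922, minus strand), the nephronectin receptor chain of kidney mesenchyme and smooth muscle, averaged 7.42 ± 0.685 CPM in HPmECC libraries, 7.3 ± 1.58 CPM in mECC and 0.411 ± 0.199 CPM in the normal cultures. Its level was 18.6-fold higher in HPmECC and 18.2-fold higher in mECC than in the normal cultures (edgeR adjusted p = 7.47e-12 and 8.51e-12). Itga9 (ENSMUSG00000039115, chr9:118606690-118901003, plus strand), a receptor for tenascin and Vcam1, had 27.2, 28.1, 26.9 and 25.2 CPM in HPmECC libraries, 7.74, 8.69, 7.5 and 9.28 CPM in mECC and 16.1, 16.8, 15 and 16.5 CPM in the normal cultures. The groups did not overlap, with HPmECC on top. Itga9 was higher in HPmECC than in mECC, by 3.24-fold (edgeR adjusted p = 9.74e-14, log2 fold change 1.69 ± 0.07 SE), and 1.67-fold higher than in the normal cultures (edgeR adjusted p = 2.71e-09, log2 fold change 0.74 ± 0.06 SE). Itga7, the laminin receptor of muscle, averaged 38.3 ± 2.41 CPM in HPmECC libraries, 21.9 ± 0.67 CPM in mECC and 44.2 ± 4.43 CPM in the normal cultures. Its level was higher in HPmECC than in mECC, by 1.75-fold (edgeR adjusted p = 2.27e-09, log2 fold change 0.81 ± 0.06 SE). Itga7 was called lower in HPmECC than in the normal cultures (log2 fold change -0.21, edgeR adjusted p = 0.00443), but not when libraries were scaled by their totals (-0.01, edgeR adjusted p = 0.871), and its sign turned on TPM (0.03).

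Leukocyte integrins were read by few counts, and most were lower in both lines than in the normal cultures. Itgad, another leukocyte chain, was not tested, with 6 counts in HPmECC, 14 in mECC and 0 in the normal cultures. Itgam, the macrophage and granulocyte chain, had 0, 0, 0 and 1 counts in HPmECC, 1, 0, 4 and 0 in mECC and 152, 202, 140 and 226 in the normal cultures. Itgax, the dendritic cell chain, had 3 counts in HPmECC, 4 in mECC and 264 in the normal cultures, and Itga4, the lymphocyte homing chain, had 3, 9 and 164 in those groups. The count ratio of the normal cultures to HPmECC was 951 for Itgam (exact 95% counting interval 170.1 to 37598), 116 for Itgax (39.3 to 567) and 72.2 for Itga4 (24.3 to 354). In mECC these 3 chains were 179-fold, 79.7-fold and 23.6-fold lower than in the normal cultures (edgeR adjusted p at most 8.15e-11). The Itgam value in mECC rests on 5 counts and was 510-fold without mECC replicate 3, which held 4 of them. In HPmECC the only Itgam count was in replicate 4. Itgal, the chain of lymphocyte adhesion to Icam1, was 6.56-fold lower in HPmECC and 6.1-fold lower in mECC (edgeR adjusted p = 7.33e-07 and 9.00e-07). Itgb2, the beta chain of Itgal, Itgam and Itgax, was 11.4-fold lower in HPmECC and 5.51-fold lower in mECC (edgeR adjusted p = 5.66e-11 and 1.68e-09), and 2.06-fold lower in HPmECC than in mECC (edgeR adjusted p = 0.00353). Itgae, the chain by which lymphocytes bind E-cadherin, was 3.39-fold lower in HPmECC and 5.9-fold lower in mECC (edgeR adjusted p = 2.43e-06 and 5.21e-08). Its call between the lines, 1.74-fold higher in HPmECC (edgeR adjusted p = 0.04), was lost without HPmECC replicate 1 or 2 or mECC replicate 2 or 3, with adjusted p up to 0.194. Itgam shares 68.7% of its exon bases with the same-strand gene model Gm49368, which had 6 counts over all libraries, beside 726 of Itgam. The division of shared reads between them by RSEM is an estimate.

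Leukocyte markers were also lower in both lines than in the normal cultures. Over 14 leukocyte markers, the summed level was 30.02 to 33.9 CPM in HPmECC libraries, 56 to 61 CPM in mECC and 334 to 424 CPM in the normal cultures. All 12 markers tested were lower in each line than in the normal cultures. Of all genes, 43.3% were lower in HPmECC and 44.2% in mECC. Between the lines 4 markers were higher in HPmECC and 2 lower (median log2 change 0.68), beside 33.8% and 34.5% of all genes. The HPmECC sum was nevertheless lower. Cd14 alone, which averaged 12 ± 0.612 CPM in HPmECC libraries and 45.4 ± 1.71 CPM in mECC libraries, differed by more than the sum. Ptprc (CD45), Tyrobp, Adgre1 and Cd3e had 0 counts in HPmECC, and Tyrobp, Cd3e and Cd52 had 0 in mECC. In the normal cultures Nkg7 was at 0, and Ptprc had 86 counts. The part of such cells in the leukocyte integrin differences was not tested.

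Against that direction, Itgb7 (ENSMUSG00000001281, chr15:102215995-102231944, minus strand), the beta chain of lymphocyte homing receptors, had 7.2, 5.79, 6.88 and 4.83 CPM in HPmECC libraries, 1.28, 1.05, 0.906 and 1.06 CPM in mECC and 0.339, 0.208, 0.22 and 0.321 CPM in the normal cultures. Its level was higher in HPmECC than in mECC, by 5.71-fold (edgeR adjusted p = 1.59e-10, log2 fold change 2.51 ± 0.17 SE), and 22.3-fold higher than in the normal cultures (edgeR adjusted p = 8.39e-13, log2 fold change 4.48 ± 0.23 SE). Its alpha partners are Itga4 and Itgae, and HPmECC held 3 counts of Itga4 and 39 of Itgae over its 4 libraries, beside 593 counts of Itgb7. Itga2b, the platelet chain, had 5.75, 7.33, 7.4 and 5.82 CPM in HPmECC libraries, 6.29, 6.07, 6.23 and 6.68 CPM in mECC and 1.02, 0.831, 0.771 and 0.551 CPM in the normal cultures. Its level was 8.43-fold higher in HPmECC and 8.12-fold higher in mECC than in the normal cultures (edgeR adjusted p = 1.86e-12 and 2.55e-12). Platelet and megakaryocyte markers (6 genes) summed to 0.367 to 0.81 CPM in HPmECC libraries, 3.57 to 4.49 CPM in mECC and 253 to 281 CPM in the normal cultures, and nearly all of the normal sum was Ppbp, at 266 ± 12.6 CPM. Gp1bb had 1 count in HPmECC, 133 in mECC and 6 in the normal cultures, and Gp1ba had 30, 29 and 17 in those groups. Their part in the Itga2b difference was not tested. Gp6 had 0 counts in every group, and Gp9 had 0 in mECC and in the normal cultures.

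Genes that act with integrins and laminins were read from lists chosen for the pathway. Of 30 integrin adaptor and signalling genes, 29 were tested: 14 were higher and 8 lower in HPmECC than in mECC, 6 were higher and 22 lower in HPmECC than in the normal cultures, and mECC had 6 higher and 21 lower than the normal cultures. The shares called were 75.9%, 96.6% and 93.1%, beside 68.3%, 86.4% and 86.3% of all genes. Their median log2 fold change was 0.14 between the lines, -0.74 for HPmECC and -0.89 for mECC against the normal cultures. Fermt1, the epithelial kindlin that activates integrins, averaged 0.23 ± 0.1 CPM in HPmECC libraries, 18.2 ± 0.323 CPM in mECC and 211 ± 5.29 CPM in the normal cultures. It was 75.6-fold lower in HPmECC than in mECC (edgeR adjusted p = 1.25e-18, log2 fold change -6.24 ± 0.11 SE). Lims2, a partner of the kinase Ilk, averaged 0.68 ± 0.177 CPM in HPmECC libraries, 0.291 ± 0.0996 CPM in mECC and 71.2 ± 2.35 CPM in the normal cultures. Tns4, a tensin of epithelial cells, was 70.03-fold lower in HPmECC and 95.6-fold lower in mECC than in the normal cultures. Tns2 was 7.35-fold higher in HPmECC than in the normal cultures. Its unscaled counts were high in both lines, with 10230 in HPmECC, 9131 in mECC and 1058 in the normal cultures. Actn1, an actin cross-linker of focal adhesions, was 6.83-fold lower in mECC than in the normal cultures and 1.53-fold higher in HPmECC than in mECC. Tns1 was 1.77-fold higher and Kank1 1.75-fold lower in HPmECC than in mECC. All these changes were called (edgeR adjusted p at most 2.56e-11).

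Of 21 basement membrane partners of laminins, 20 were tested. In HPmECC 7 were higher and 9 lower than in mECC, and 5 higher and 13 lower than in the normal cultures. In mECC 6 were higher and 14 lower than in the normal cultures. Between the lines 80% were called, beside 68.3% of all genes, and against the normal cultures 90% in HPmECC and 100% in mECC, beside 86.4% and 86.3%. The nidogens, which link laminin to collagen networks, went opposite ways: Nid1 averaged 21.9 ± 1.13 CPM in HPmECC against 123 ± 4.83 CPM in mECC (edgeR adjusted p = 2.48e-16, log2 fold change -2.49 ± 0.06 SE), and Nid2 25.1 ± 1.61 CPM in HPmECC against 2.43 ± 0.615 CPM in mECC (edgeR adjusted p = 1.93e-14, log2 fold change 3.35 ± 0.12 SE). Before scaling to library size, the normal cultures held 11212 counts of Nid1 and 2189 of Nid2. HPmECC held 2142 of Nid1 and 2445 of Nid2, and mECC 12559 and 251. Col4a3 and Col4a4, basement membrane collagen chains, were 82.8-fold and 16.7-fold lower in HPmECC than in mECC. Smoc1, Smoc2 and Col15a1, matrix proteins of basement membranes, were higher in both lines than in the normal cultures, by 95.5-fold, 62.1-fold and 41.9-fold in HPmECC and by 49.2-fold, 61.5-fold and 73.8-fold in mECC. Col4a6, another such collagen chain, was 36.9-fold lower in mECC than in the normal cultures (edgeR adjusted p = 2.72e-11), on 16 counts in mECC, and 59.9-fold lower without mECC replicate 2.

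Of 20 integrin ligands other than laminins and collagens, 18 were tested. In HPmECC 11 were higher and 5 lower than in mECC, and 10 higher and 8 lower than in the normal cultures. In mECC 10 were higher and 7 lower than in the normal cultures. Thus 88.9% were called between the lines, 100% in HPmECC against normal and 94.4% in mECC against normal, where all genes gave 68.3%, 86.4% and 86.3%. Cdh1, E-cadherin and the ligand of the Itgae receptor, averaged 0.935 ± 0.254 CPM in HPmECC libraries, 105 ± 2.51 CPM in mECC and 838 ± 23.9 CPM in the normal cultures. Edil3, a ligand of Itgav receptors, averaged 94.6 ± 4.62 CPM in HPmECC libraries, 35.2 ± 2.82 CPM in mECC and 0.176 ± 0.152 CPM in the normal cultures. Spp1, osteopontin, was 2.64-fold lower in HPmECC than in mECC and Fbn1, fibrillin, 2.54-fold higher (edgeR adjusted p = 1.45e-12 and 1.47e-09). Icam1, a ligand of the Itgb2 receptors, was 53.9-fold lower in HPmECC and 41-fold lower in mECC than in the normal cultures (edgeR adjusted p = 3.17e-16 and 3.89e-16). Icam2, another such ligand, was 70.5-fold lower in HPmECC, on 7 counts, and 111-fold lower without HPmECC replicate 2. Its 3 counts in mECC, 2 of them in replicate 3, gave a ratio of the normal cultures to mECC of 184 (exact 95% counting interval 62.5 to 896), and the fitted fold was 284 without that replicate. Tgfbi, a matrix protein bound by integrins, was 30.6-fold higher in mECC than in the normal cultures (edgeR adjusted p = 2.39e-19). Its unscaled counts were high in both lines, with 30268 in HPmECC, 19580 in mECC and 464 in the normal cultures.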

How the data were processed

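Libraries of mRNA from 12 mouse cell samples were compared, 4 each of HPmECC, mECC and normal endometrial cultures, grouped by the cell line given in their labels. Per the submitters' processing notes, Trim Galore, STAR 2.6.1a and RSEM 1.3.1 were used with mouse build GRCm38, with annotation release and strand setting not given in the sources used here. Deposited estimated counts, TPM and FPKM values per gene are the authors' own RSEM output; the counts were already whole numbers, the TPM values are scaled for transcript length, and FPKM served to derive effective lengths. RSEM splits reads shared by overlapping genes by estimate.

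Of 55385 gene identifiers, 55144 had a symbol. Members were found by symbol pattern (1 further member and 2 marker genes are not reported here, and stayed in the fit), and the members, the related lists and the marker lists were chosen with earlier results of these data known. Counts were tested with edgeR 4.0.16 (R 4.3.3) by its quasi-likelihood test on all 12 libraries, with TMM scaling and the filterByExpr filter (minimum count 10), leaving 15283 genes; the common coefficient of variation was 4.27%. Adjusted p is Benjamini-Hochberg over these genes, called under 0.05. CPM values are TMM-scaled and ± is SD over 4 libraries unless marked SE. From each related list, up to 4 called genes per comparison were named, by size of change among those whose higher group reached 5 CPM; Epcam and the markers at 0 were picked out beside their lists. The edgeR script was tested on simulated data. DESeq2 1.42.0, limma 3.58.1 on log2 TPM, other scalings and filters, a replicate block and leaving out each library were alternatives. Coordinates are those of GENCODE M21 on GRCm38, and promoters come from RefSeq on GRCm38.p6. Counting intervals and the floor of 3 counts cover counting error only, since reads without molecular identifiers are not independent molecules.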

Additional observations from a re-analysis of the deposited data

Results flagged for a closer look

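In 5 of 83 pairs of a member and a group with a mean of at least 1 CPM, 1 library lay far from the other 3 (gap over range above Dixon's 95% critical value). Chance gives about 1 such case in 20 groups. Itgb5 had 330.3 CPM in HPmECC replicate 3 and 346 to 349 CPM in the other HPmECC libraries. In mECC, Itgb1 had 886 CPM in replicate 3 and 905 to 907 CPM in the others, and Lamb1 had 165 CPM in replicate 1 and 182 to 184 CPM in the others. In the normal cultures, Itga7 had 37.6 CPM in replicate 2 and 45.8 to 47.3 CPM in the others, and Itgam had 7.71 CPM in replicate 3 and 10.3 to 10.5 CPM in the others.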

How the results depend on the processing

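Of 105 member fold changes, 92 kept their direction and call under every alternative in which they were tested. Low genes were not tested under the strictest filter (below). Scaled by library totals, the median of all genes moved to -0.05 (HPmECC against mECC), 0.20 (HPmECC against normal) and 0.22 (mECC against normal), Itga8 turned to -0.0158 in HPmECC against mECC and Lamb2 to 0.0778 in mECC against normal. On log2(TPM + 1), the log2 fold changes that turned were -0.12 for Itga2b and -0.10 for Itga8 in HPmECC against mECC, 0.12 for Lamb2 in mECC against normal and 0.0266 for Itga7 in HPmECC against normal; on log2(TPM + 0.1) they were -0.14, -0.13, 0.12 and 0.0281. Leaving out 1 library turned the uncalled HPmECC against mECC values of Itga2b (-0.0061 to 0.12), Itga8 (-0.070 to 0.14), Itgal (-0.43 to 0.0933), Itgav (-0.0654 to 0.00969) and Itgax (-0.64 to 0.16), while the counts of called members stayed at 11 to 12 higher and 14 lower between the lines, 9 higher and 26 lower in HPmECC against normal, and 6 higher and 28 lower in mECC against normal. With at least 10 CPM in 4 libraries, 22 members were tested, 5 were higher and 17 lower in HPmECC than in normal and 3 were higher in mECC than in normal, since low genes such as Itga8, Itgb7 and Itga2b left the test. Itgae between the lines was also lost under library totals, no filter, DESeq2 (adjusted p = 0.0994) and log2(TPM + 1). The causes of the other changes were not tested.

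Members with a different effective length numbered 0 to 2 in HPmECC against mECC, 0 to 1 in HPmECC against normal and 0 to 1 in mECC against normal when 1 library was left out. Without HPmECC replicate 4, Lama3 left the list of HPmECC against mECC (0 members), without mECC replicate 3 Itga9 joined it (2), without HPmECC replicate 2 Lama3 joined HPmECC against normal (1), and without mECC replicate 4 Lama5 joined mECC against normal (1). At a mean of at least 200 counts, 0 members differed between the lines. Libraries with the same replicate number did not deviate together, with correlations of -0.04 to 0.08. Of 12 libraries, 4 resembled most a library of their own number. With so few libraries per group, these values cannot settle whether the numbers pair the samples. With a replicate block, 11 members were higher and 14 lower in HPmECC than in mECC, 9 higher and 26 lower in HPmECC than in normal, and the mECC against normal counts were 6 higher and 28 lower, and Itgae between the lines was no longer called (adjusted p = 0.0676). Of the shares within a chain class, 59 moved by more than 1 SD and 41 did not when counts were divided by the longest annotated transcript. Depth limits Itgam, Itgax, Itga4, Itgal, Itgae, Itgb2, Lama1, Lama2 and Lamc3, at 1 to 113 counts per line.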
